A study of Mus musculus with 4 samples.

Results

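The genes for the receptors of the colony-stimulating factors (CSFs), Csf1r, Csf2ra, Csf2rb, Csf2rb2 and Csf3r, were followed across 4 maps of open chromatin from mouse bone marrow cells. These 5 genes were taken by name from 21883 protein-coding genes, and the locus of each was its gene body plus 20 kb on either side in mm10. Intervals called in any library were merged where they shared a base, and 53 of 120423 merged regions lay in the 5 loci. The assay was Omni-ATAC-seq, in which a transposase cuts and tags DNA that is not packed in nucleosomes, so that a stack of tags marks an accessible site. One library was made from each of 4 groups of in vitro cultured cells of the C57BL/6J strain. Progenitors, a mix of common myeloid progenitors and granulocyte-monocyte progenitors (together CMP/GMP), came from wild-type (WT) and from Cxcr3-/- marrow, and monocytes likewise. Where 4 values stand in a row, they are for CMP/GMP (WT, then Cxcr3-/-) and then for monocytes (WT, then Cxcr3-/-). The product of Cxcr3 is a receptor for chemokines, and the sources used here do not say which part of the gene is deleted. The label of every library names hepatocellular carcinoma, and the series describes liver tumours induced with diethylnitrosamine and CCl4. Whether the marrow came from treated mice, how old they were, how many were used, and how the cells were sorted or cultured are not stated. Since each group is 1 library, differences could not be checked against replicates, no test was run, and every interval printed covers counting error only.

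CSF1R is the receptor tyrosine kinase for CSF-1 and IL-34, and monocytes and macrophages depend on it for survival and growth. The receptor for GM-CSF pairs a ligand-binding alpha chain, encoded by Csf2ra, with the common beta chain, encoded by Csf2rb, which also serves the receptors for IL-3 and IL-5. Mice have a duplicate of the beta chain gene, Csf2rb2, whose product pairs with the IL-3 receptor. CSF3R is the receptor for G-CSF and drives granulocyte production. In the myeloid lineage these genes are known targets of PU.1, C/EBP and RUNX factors, and Csf1r is known for an intronic enhancer.

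The deposited lists held 69521 to 98257 intervals, and the median number of tags at an interval's summit (the summit pileup) was 21 to 29. The lowest background used by the caller came to 135, 194, 95.6 and 97.2 tags per 10 kb, so depth and background differed between the cell types and between the CMP/GMP libraries. Pileups are printed as whole tags, and ratios were taken after dividing by 0.791, 1.29, 1.11 and 0.879, each library's median pileup at regions called in all 4 relative to the others. Scaling by background tags instead would add 0.98 to every monocyte to CMP/GMP log2 ratio in WT, 0.44 in Cxcr3-/-, 0.18 to every genotype ratio in CMP/GMP and -0.36 in monocytes. Of 100 regions at 10 CMP/GMP marker genes, 21 (21.0%) were called in both CMP/GMP libraries and neither monocyte library, against 7.28% of all regions, and 5 (5.0%) the other way round, against 14.4%. Of 120 regions at 11 monocyte marker genes, 14 (11.7%) were called in both monocyte libraries alone and 7 (5.83%) in both CMP/GMP libraries alone, both below the shares of all regions, so these calls did not set the monocyte libraries apart at their markers. Every one of 12 marker lists had called regions in every library, hepatocyte genes included (3, 5, 9 and 7 of 12 regions), and the part of other cells in the results was not tested.

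All 5 receptor loci had called intervals in all 4 libraries, and by count the cell types stood furthest apart at Csf1r. Calls in such windows were common, as 13032 of 21883 protein-coding genes had at least 5 regions there. That locus held 7 and 8 called intervals in the CMP/GMP libraries (WT and Cxcr3-/-) and 16 and 12 in the monocyte libraries. Csf2ra had 3, 6, 8 and 4 intervals, and Csf2rb had 7, 9, 10 and 6. Csf2rb2 had 4, 5, 7 and 9, and Csf3r had 8, 7, 10 and 9. Both monocyte libraries were above both CMP/GMP libraries at Csf1r, Csf2rb2 and Csf3r, and the cell types overlapped at Csf2ra and Csf2rb. Over the 5 loci together the counts were 27, 33, 49 and 37. Per 10000 intervals of each list that was 3.88 (exact 95% Clopper-Pearson interval 2.56 to 5.65), 4.12 (2.83 to 5.78), 4.99 (3.69 to 6.59) and 4.73 (3.33 to 6.52), and these intervals overlap. With lists of the same length the counts were 27, 28, 40 and 34, with 7, 7, 13 and 12 at Csf1r, 4, 5, 7 and 7 at Csf2rb2 and 8, 6, 8 and 8 at Csf3r, where the cell types then overlapped. With a -log10 q of at least 5 the cell types overlapped at Csf2rb2 (4, 5, 7 and 5), and with 50 kb flanks they did so at Csf2rb2 (12, 18, 22 and 18) and at Csf3r (12, 11, 15 and 11). At Csf1r the monocyte libraries had the higher counts under each of these settings. Per 10000 intervals of the full lists, Csf1r had 1.01 (0.405 to 2.07) in WT and 0.998 (0.431 to 1.97) in Cxcr3-/- CMP/GMP. In monocytes it had 1.63 (0.931 to 2.64) in WT and 1.53 (0.792 to 2.68) in Cxcr3-/-, and these intervals overlap as well. In such bulk libraries a site open in fewer cells and a site less open in each cell cannot be told apart.

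**Figure D1:**
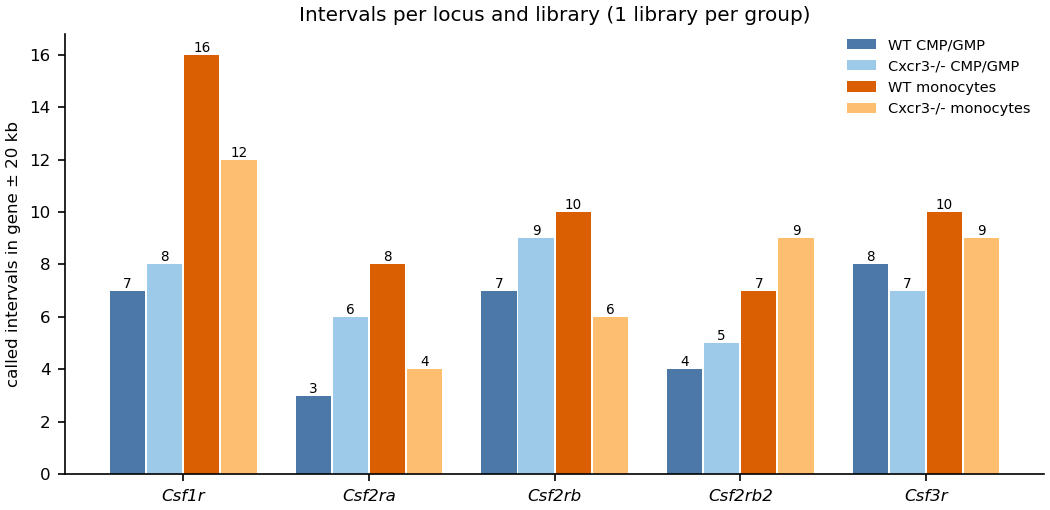
Number of called intervals (vertical axis) in each receptor locus, defined as the gene body plus 20 kb on either side, with 1 bar per library. Csf1r has 16 and 12 intervals in the monocyte libraries against 7 and 8 in the CMP/GMP libraries, and Csf2rb and Csf2rb2 share part of their windows.

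Of the 53 regions, 20 (37.7%) were called in all 4 libraries, close to the 37.0% of all merged regions. Another 13 regions (24.5%) were called in both monocyte libraries and in neither CMP/GMP library, against 14.4% of all regions. A single region (1.89%) had the converse pattern, against 7.28% of all regions. The 13 monocyte-only regions fell unevenly, with 7 of 18 regions at Csf1r, 3 of 10 at Csf3r, 2 of 11 at Csf2rb2, 1 of 7 at Csf2ra and 0 of 10 at Csf2rb. The remaining 19 regions were called in 1 library, in 3, or in a pair of libraries from different cell types.

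A missing call is not a missing site, so the depth behind each was examined. At equal accessibility the 13 monocyte-only regions would have had 9.95 to 34.8 tags in the WT and 13.2 to 42.5 in the Cxcr3-/- CMP/GMP library. In 12 of 13 regions in each library that was at least the smallest pileup the caller accepted at a like local background. Background at a site with no call was taken from the nearest called interval of the same library, whatever its distance, here and below. The margin was 2-fold or more in 7 of 13 regions in WT CMP/GMP and in 6 of 13 in Cxcr3-/- CMP/GMP, so a difference of less than 2-fold could leave the others uncalled.

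**Figure D2:**
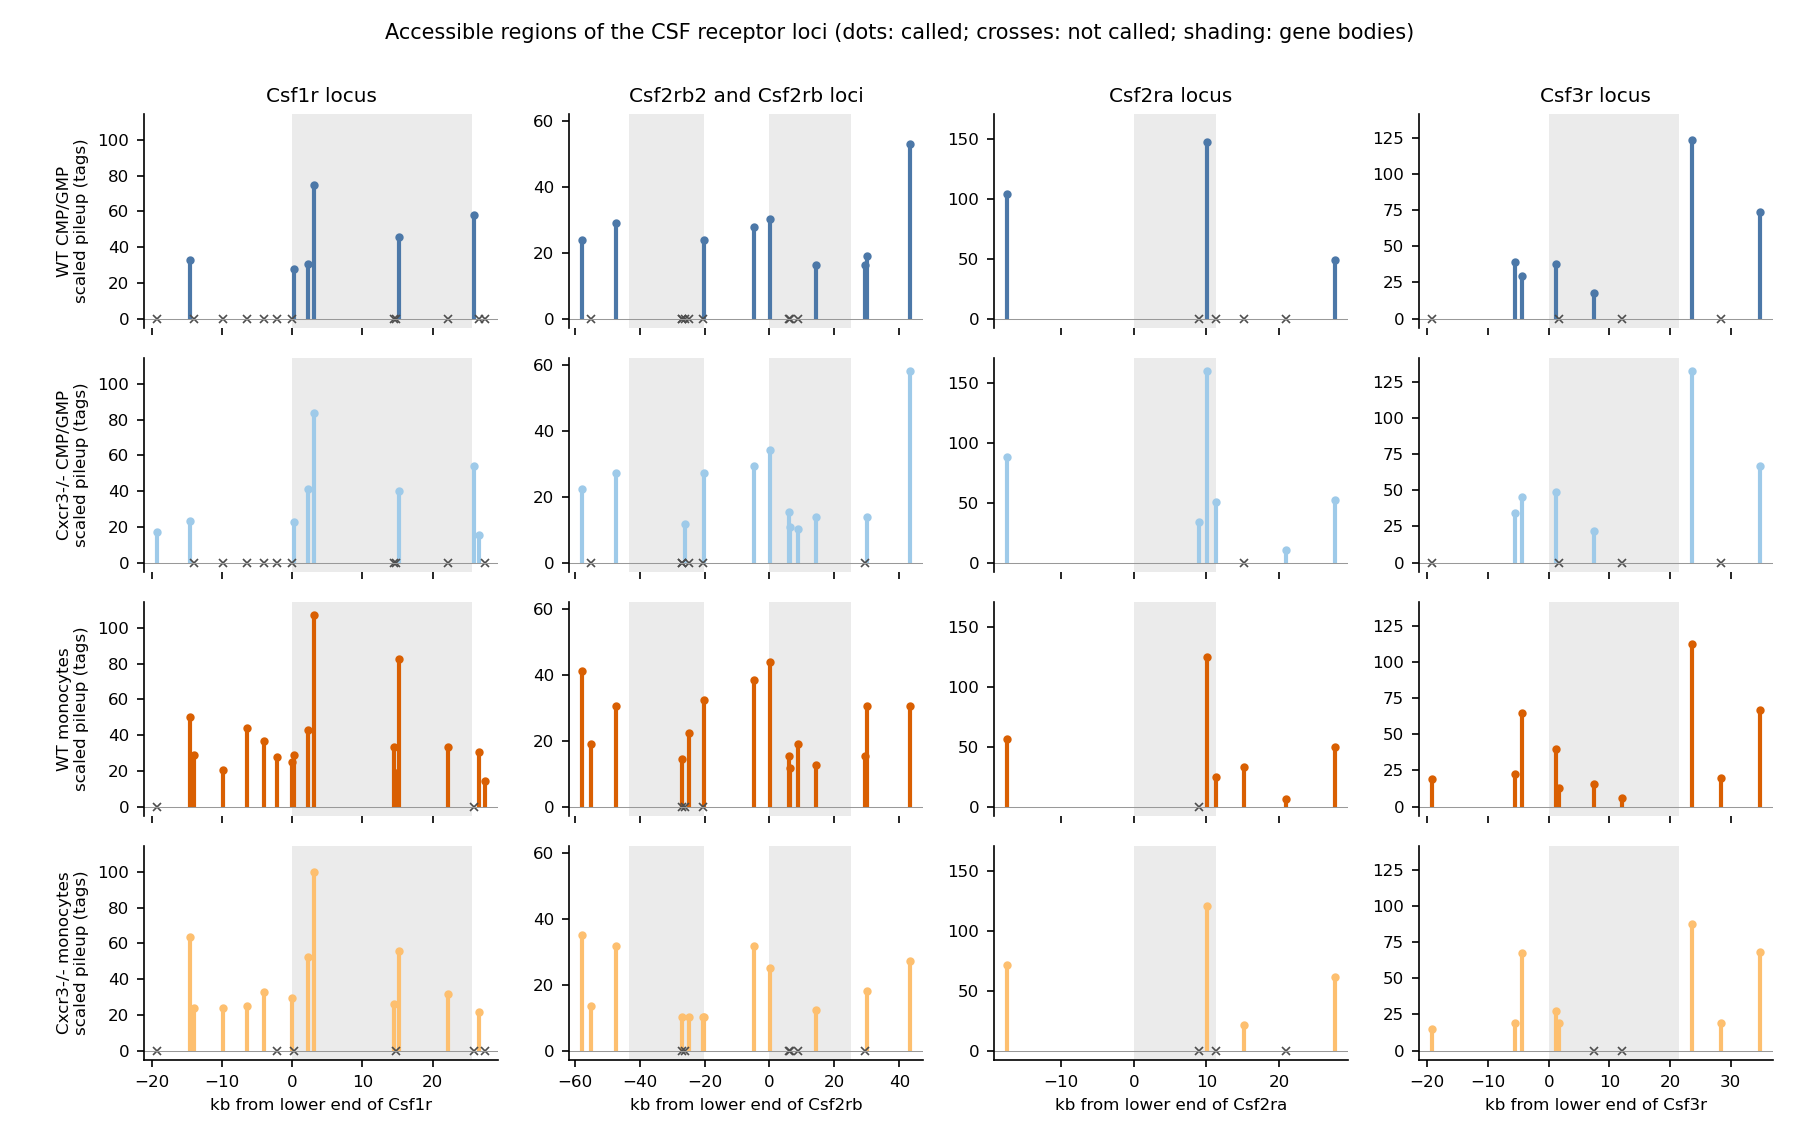
Scaled summit pileup (vertical axis, tags) of every region against distance from the lower-coordinate end of the gene (horizontal axis, kb), with 1 row per library and 1 column per locus. Dots are called regions, crosses are regions not called in that library, and grey shading marks gene bodies; at Csf1r, crosses upstream of the gene in both CMP/GMP rows face called regions in the monocyte rows.

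Csf1r lies on chromosome 18 from 61105572 to 61131139 on the plus strand. Its most accessible region in every library was in the gene body, 3082 bp from the annotated start (61108440 to 61109058), with 59 and 108 tags in CMP/GMP (WT and Cxcr3-/-) and 119 and 88 in monocytes. After scaling, this site had a monocyte to CMP/GMP log2 ratio of 0.52 for WT (95% counting interval 0.06 to 0.99) and of 0.26 for Cxcr3-/- (-0.17 to 0.68). Its neighbour at 2194 bp (61107614 to 61107913) had 24, 53, 48 and 46 tags, with ratios of 0.51 (-0.23 to 1.28) and 0.35 (-0.25 to 0.95). Both sites were thus called in the progenitor libraries too, and 3 of these 4 ratios have an interval that includes 0.

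Further into the gene, another region shared by all libraries lay 15178 bp from the start (61120584 to 61120881) and had 36, 52, 92 and 49 tags. Its cell-type log2 ratio came to 0.86 (0.29 to 1.46) for WT and 0.47 (-0.13 to 1.06) for Cxcr3-/-. The last of the shared regions, at -14680 bp from the start (61090614 to 61091409) and between Pdgfrb and Csf1r, had 26, 30, 56 and 56 tags. It was 0.61 (-0.08 to 1.34) higher on the log2 scale in WT monocytes and 1.45 (0.79 to 2.14) in Cxcr3-/- monocytes. All 4 shared Csf1r regions had a ratio above 0 in both genotypes, with this scaling, each of 3 other scalings and the unscaled deposited fold.

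The 7 monocyte-only regions of the Csf1r locus ran from -13979 to 22148 bp from the gene start. One covered the annotated start itself (61105508 to 61105658), with 28 tags in WT and 26 in Cxcr3-/- monocytes. A site 285 bp into the gene, called in 3 libraries, had 22 and 29 tags in CMP/GMP (WT and Cxcr3-/-) and 32 in WT monocytes and was not called in Cxcr3-/- monocytes. The start of Csf1r was thus marked in every library, by either or both of these adjacent sites. Upstream, monocyte-only regions had 32 and 21 tags in WT and Cxcr3-/- monocytes at -13979 bp, 23 and 21 at -9906 bp, 49 and 22 at -6438 bp, and 41 and 29 at -3994 bp. Within the gene they had 37 and 23 tags at 14532 bp and 37 and 28 at 22148 bp. The region at -6438 bp (61099047 to 61099293) was the tallest of the 7 in WT monocytes. At equal accessibility it would have had 34.8 tags in WT CMP/GMP. There the smallest accepted pileup was 13, at the background of the nearest call, which was the site 285 bp into the gene.

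The 1 region in the 5 loci called in both CMP/GMP libraries alone lay just past the end of Csf1r (61131200 to 61131812), over the end of the neighbouring gene Hmgxb3. It had 46 tags in WT and 70 in Cxcr3-/- CMP/GMP. Equal accessibility would have given 64.7 tags in WT and 47.7 in Cxcr3-/- monocytes, where pileups of 14 and 11 were accepted at a like background. Its pattern was the opposite of that of the 7 monocyte-only regions, and whether it belongs to Csf1r or Hmgxb3 cannot be told from these data. The next region along Hmgxb3 (61131980 to 61132430) was called in monocytes, with 34 tags in WT and 19 in Cxcr3-/-. It was also called in Cxcr3-/- CMP/GMP, with 20 tags.

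Csf2ra lies near the end of chromosome 19, from 61217191 to 61228461 on the minus strand, and it held the tallest region of the 5 loci in every library. This region, 1501 bp wide and 1079 bp inside the gene from its start (61226547 to 61228047), had 117 and 206 tags in CMP/GMP (WT and Cxcr3-/-) and 139 and 106 in monocytes. Its cell-type log2 ratio came to -0.24 (-0.61 to 0.12) for WT and -0.41 (-0.76 to -0.06) for Cxcr3-/-. Local background was also high there, at 10.5, 19.4, 9.77 and 7.68 tags. With background scaling the ratios were 0.74 and 0.04, so their direction depends on the scaling.

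A region beyond the far end of Csf2ra (61199385 to 61200073) had 82, 114, 63 and 63 tags, with cell-type log2 ratios of -0.87 (-1.37 to -0.38) in WT and -0.30 (-0.77 to 0.15) in Cxcr3-/-. By background tags these became 0.11 and 0.14. An upstream region (61244543 to 61245210) had 39, 68, 56 and 54 tags, and its ratios were 0.03 (-0.59 to 0.66) and 0.22 (-0.32 to 0.76). The gene start itself (61228357 to 61228586) was called in Cxcr3-/- CMP/GMP with 65 tags and in WT monocytes with 28, and not in the other 2 libraries. Equal accessibility predicts 39.9 tags there in WT CMP/GMP from the Cxcr3-/- library, but only 19.9 from WT monocytes, and 25 was the smallest pileup accepted at that background. The first of these predictions is above that pileup and the second is below it. The single monocyte-only region of the locus lay upstream (61232346 to 61232485) and had 37 tags in WT and 19 in Cxcr3-/- monocytes.

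Csf2rb (78325800 to 78351001, plus strand) and its duplicate Csf2rb2 (78282507 to 78305721, minus strand) lie head to head on chromosome 15, and their windows share 3 regions. The 2 genes are close copies of each other, and the sources used here do not say how reads that align to both were treated, so tags within the gene bodies may be split between them. The start of Csf2rb (78325713 to 78326240) had 24 and 44 tags in CMP/GMP (WT and Cxcr3-/-) and 49 and 22 in monocytes. The start of Csf2rb2 (78305428 to 78305937) had 19 and 35 tags in CMP/GMP and 36 and 9 in monocytes. At both starts Cxcr3-/- monocytes had the fewest tags. A region between the genes, at -4804 bp from the Csf2rb start (78320768 to 78321145), had 22, 38, 43 and 28 tags.

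At the beta chain genes, cell-type ratios lay on both sides of 0. At the Csf2rb start the log2 ratio came to 0.54 (-0.20 to 1.31) for WT and -0.45 (-1.26 to 0.32) for Cxcr3-/-, and between the genes it was 0.47 (-0.30 to 1.29) and 0.11 (-0.65 to 0.85). A region downstream of Csf2rb (78368867 to 78369323), 43302 bp from its start, had 42, 75, 34 and 24 tags and had cell-type log2 ratios of -0.80 (-1.49 to -0.11) for WT and -1.09 (-1.82 to -0.41) for Cxcr3-/-. By background tags its ratios were 0.19 and -0.65. Downstream of Csf2rb2 and towards Ncf4, a region (78267912 to 78268155) had 19, 29, 46 and 31 tags, with ratios of 0.78 (-0.02 to 1.64) and 0.65 (-0.13 to 1.43). Weak regions inside Csf2rb, 3 in number and 5911 to 8752 bp from the start, were called in Cxcr3-/- CMP/GMP (20, 14 and 13 tags) and WT monocytes (17, 13 and 21 tags) alone. Those are the longer lists of each cell type. The monocyte-only regions here were both at Csf2rb2, with 25 and 9 tags in WT and Cxcr3-/- monocytes inside the gene and 21 and 12 beyond its far end.

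Csf3r lies on chromosome 4 from 126023441 to 126044975 on the plus strand. Its window also reaches Mrps15 and Oscp1, and the tallest region of the window (126046747 to 126047426; 97, 170, 125 and 77 tags) lay at the start of Mrps15, a mitochondrial ribosomal protein gene. An Oscp1 promoter was overlapped by a region with 58, 86, 74 and 60 tags. The region with the largest cell-type ratio of the 5 loci in WT lay at -4272 bp from the Csf3r start (126018831 to 126019317). It had 23 and 58 tags in CMP/GMP (WT and Cxcr3-/-) and 72 and 59 in monocytes. Its log2 ratio came to 1.15 (0.46 to 1.90) for WT and 0.58 (0.03 to 1.13) for Cxcr3-/-. A neighbour at -5561 bp (126017707 to 126018211) had 31, 44, 25 and 17 tags, with CMP/GMP above monocytes in tags within each genotype.

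The Csf3r promoter region (126024415 to 126024892) had 30 and 63 tags in CMP/GMP (WT and Cxcr3-/-) and 44 and 24 in monocytes. The cell-type log2 ratio came to 0.06 (-0.64 to 0.78) for WT and -0.84 (-1.58 to -0.14) for Cxcr3-/-. By background tags these were 1.05 and -0.40. The 3 monocyte-only regions of this locus were weak, with 21 and 13 tags at -19382 bp, 14 and 17 at 1643 bp, and 22 and 17 inside Mrps15.

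Across the 5 loci, monocyte to CMP/GMP ratios could be measured at 15 regions in WT and 17 in Cxcr3-/-, where both libraries had a call and the pileup averaged 30 tags or more. In WT, 1 region was more than 2-fold higher in monocytes, the one upstream of Csf3r, against 10.8% of all regions measured, and 0 were more than 2-fold lower, against 6.67%. In Cxcr3-/-, 1 region was more than 2-fold higher, the one between Pdgfrb and Csf1r, against 10.9%, and 1 was lower, the one downstream of Csf2rb, against 9.78%. The median ratio of the receptor regions was 0.47 in WT, where all regions had 0.03, and 0.11 in Cxcr3-/-, where all regions had -0.10. Averaged by locus, Csf1r had 0.63 in both genotypes, Csf2rb2 0.60 and 0.14, Csf3r 0.24 and -0.33, Csf2rb 0.07 and -0.48, and Csf2ra -0.36 and -0.16 in WT and Cxcr3-/-. These means rest on 3 to 5 regions a locus, and counting intervals of regions in neighbouring loci of that order overlap. They describe windows, not genes alone. The Csf2rb start and the region between the beta chain genes enter both beta chain means, and no region measured for Csf2rb2 lay inside that gene. The Csf3r means include the Mrps15 start and the Oscp1 promoter. In Cxcr3-/- the Csf1r regions had a median of 0.41, with the highest at 1.45. By background tags 10 regions were past 2-fold higher in WT and 3 in Cxcr3-/-.

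**Figure D3:**
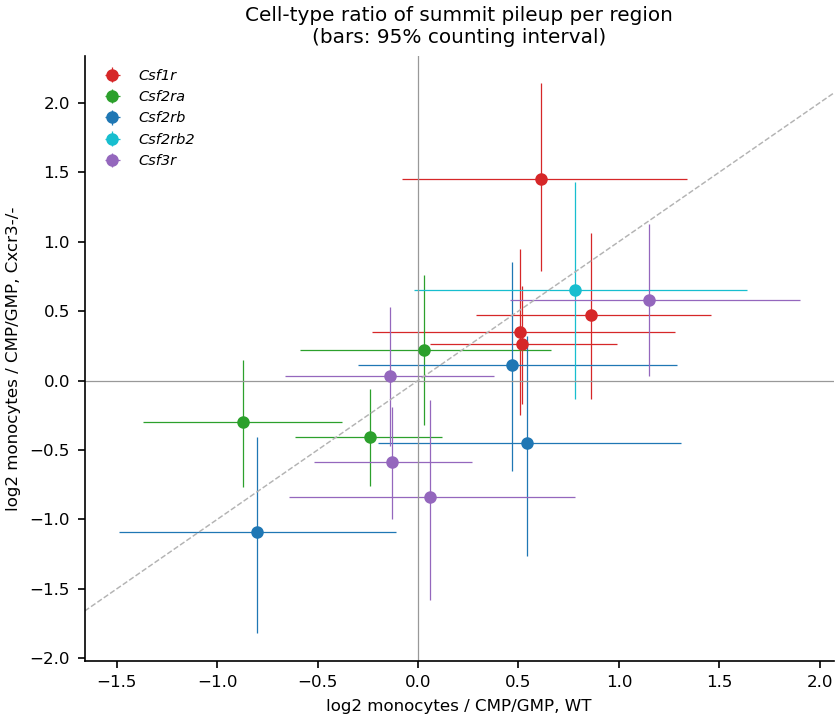
Monocyte to CMP/GMP log2 ratio of summit pileup in WT (horizontal axis) and in Cxcr3-/- (vertical axis), 1 point per region with a ratio in both, coloured by gene, with bars for the 95% counting interval. The 4 Csf1r points lie above 0 on both axes (0.51 to 0.86 in WT and 0.26 to 1.45 in Cxcr3-/-), while Csf2ra and Csf3r points lie on both sides of 0.

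Loss of Cxcr3 was compared with WT within each cell type. In CMP/GMP, 15 receptor regions had a ratio, and 0 were more than 2-fold higher and 0 more than 2-fold lower in Cxcr3-/-, against 0.139% and 0.136% of all regions. Their log2 ratios ran from -0.23 to 0.63 with a median of 0.10, where all regions had 0.05. The largest, 0.63 (-0.09 to 1.39), was at the region upstream of Csf3r. The 15 counting intervals all included 0 with this scaling, and the region upstream of Csf3r reached 0.81 (0.09 to 1.57) by background tags.

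In monocytes, 19 regions had a ratio, and again 0 were more than 2-fold higher and 0 more than 2-fold lower, against 0.264% and 0.401% of all regions. The ratios ran from -0.81 to 0.34 with a median of -0.09, where all regions had 0.00. Counting intervals lay wholly below 0 at 3 of 19 regions, against 4.44% of all regions, and wholly above 0 at 0, against 6.03%. Those 3 were the Csf2rb start at -0.81 (-1.61 to -0.06), the region at -6438 bp from the Csf1r start at -0.81 (-1.61 to -0.06) and the region at 15178 bp in Csf1r at -0.57 (-1.10 to -0.05). With scaling by regions at gene ends, 0 of the 19 intervals lay wholly below 0 and 0 above it, and these 3 became -0.69 (-1.49 to 0.06), -0.69 (-1.49 to 0.06) and -0.44 (-0.97 to 0.07). By background tags 7 intervals lay below 0 and all 19 ratios were negative. Whether any of these 19 regions was lower beyond counting error thus depends on the scaling. The tallest region of Csf1r, at 3082 bp, had -0.09 (-0.51 to 0.32), and the large region inside Csf2ra had -0.05 (-0.43 to 0.33).

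The start of Csf2rb2, with 36 tags in WT and 9 in Cxcr3-/- monocytes, fell below the minimum mean of 30 tags. Without that minimum its monocyte log2 ratio was -1.66 (-2.90 to -0.58), while in CMP/GMP, with 19 and 35 tags, it was 0.18 (-0.67 to 1.06). Without the minimum, 0.82% of all regions called in both monocyte libraries were more than 2-fold lower in Cxcr3-/-. The Csf2rb start had -0.81 in monocytes and 0.17 (-0.58 to 0.95) in CMP/GMP, and the Csf3r promoter had -0.53 (-1.32 to 0.22) and 0.37 (-0.28 to 1.04). The difference between the genotype ratios in the cell types was -0.98 (-2.00 to 0.04) for Csf2rb and -0.90 (-1.85 to 0.05) for Csf3r. At these 3 gene starts Cxcr3-/- monocytes had the lowest value before and after the main scaling, and by background tags this held for Csf2rb2 but not for Csf2rb or Csf3r. Around 4 of the loci protein-coding genes are dense, with 17 to 22 per Mb, and regions at like gene density had median monocyte ratios of -0.09 to -0.14. Around Csf2ra, with 9 genes per Mb, the median was 0.06. The part of gene density in the receptor values was not tested.

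**Figure D4:**
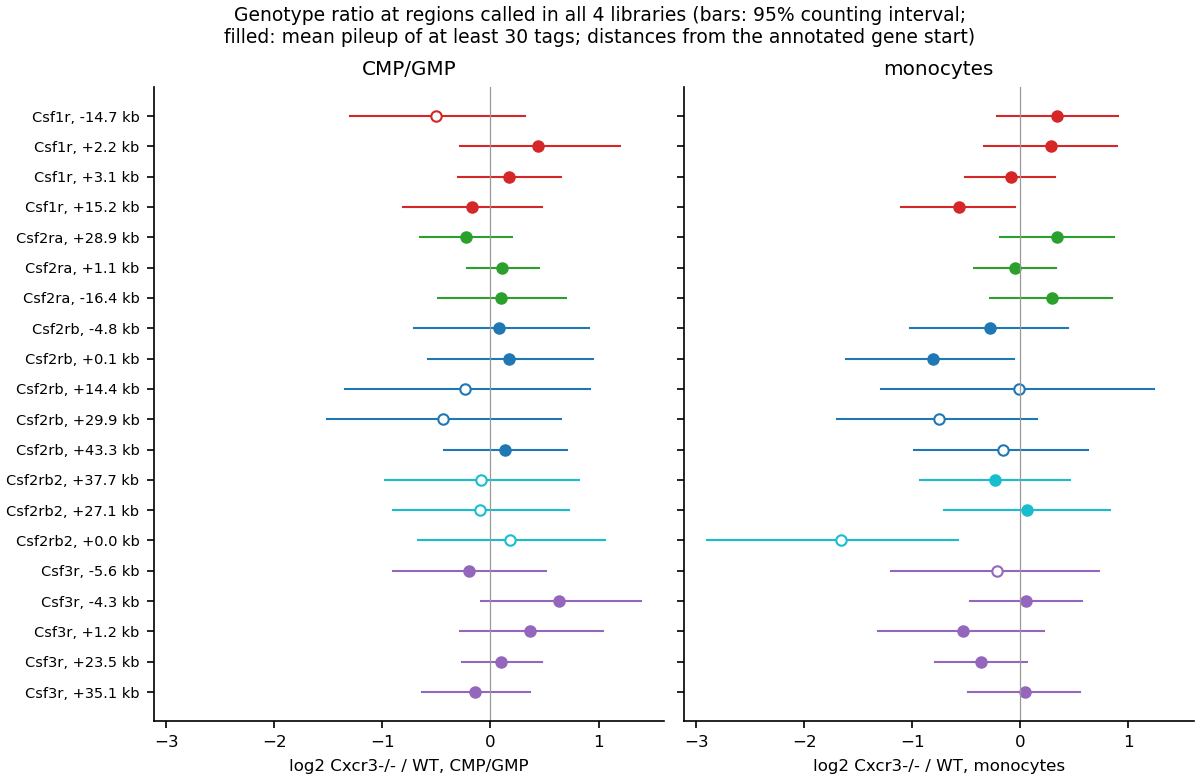
Cxcr3-/- to WT log2 ratio of summit pileup (horizontal axes) in CMP/GMP (left) and monocytes (right) for the 20 regions called in all 4 libraries, named by gene and distance from the gene start, with 95% counting intervals. Filled points have a mean pileup of at least 30 tags, open points fewer; the Csf2rb2 start is the leftmost point in monocytes at -1.66 and lies at 0.18 in CMP/GMP.

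Calls made in 1 genotype and missing in the other were counted as well. Of 47 receptor regions called in WT monocytes, 13 (27.7%) were not called in Cxcr3-/- monocytes, against 26.3% of all regions. Of 36 called in Cxcr3-/- monocytes, 2 (5.56%) were not called in WT, against 6.59%. In CMP/GMP, 9 of 32 regions (28.1%) called in Cxcr3-/- were not called in WT, against 23.8%, and 1 of 24 (4.17%) called in WT was not called in Cxcr3-/-, against 9.27%. The first 3 of these shares are near the background, and the last rests on 1 region. Of the 13 regions missing from Cxcr3-/- monocytes, 11 would have reached the smallest accepted pileup at equal accessibility, but only 4 with a 2-fold margin.

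Summits of the shared regions lay close together in the 4 libraries. Over the 20 regions called in all, the distance between the outermost summits was 5 to 155 bp with a median of 37 bp, and it was at most 50 bp in 13. The widest spread, 155 bp, was at the Csf2rb start, where the summit of WT CMP/GMP lay apart from the other 3. The 5 bp spread was at a region 29919 bp from the Csf2rb start, with 15, 18, 34 and 16 tags. The best-ranked interval by q was at the Mrps15 start in 3 libraries, at ranks 1544 and 1049 in the CMP/GMP libraries (WT and Cxcr3-/-) and 1340 in WT monocytes, and inside Csf2ra at rank 4090 in Cxcr3-/- monocytes. Of the 10000 best intervals, 6, 7, 7 and 7 lay in the 5 loci, out of 27, 33, 49 and 37 called there. The full lists held 69521, 80171, 98257 and 78244 intervals.

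Promoter sequences in the RefSeq table (GRCm38.p6) were matched for 3 of the 5 receptor genes, Csf2ra, Csf2rb2 and Csf3r, and each overlapped a called region. They are shown because the calls or tags at these starts differed between libraries. Each line gives the 250 bases before the start used in that table, 5' to 3' on the gene's strand, and capitals mark matches to the PU.1 motif GAGGAAG or its reverse complement. The windows are chr19:61228419-61228668 (minus), chr15:78305722-78305971 (minus) and chr4:126024409-126024658 (plus).
Csf2ra: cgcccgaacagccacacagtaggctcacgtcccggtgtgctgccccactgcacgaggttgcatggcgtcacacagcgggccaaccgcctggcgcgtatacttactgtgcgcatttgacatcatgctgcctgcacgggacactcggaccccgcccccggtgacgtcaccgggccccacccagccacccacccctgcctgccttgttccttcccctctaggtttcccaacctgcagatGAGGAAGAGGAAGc
Csf2rb2: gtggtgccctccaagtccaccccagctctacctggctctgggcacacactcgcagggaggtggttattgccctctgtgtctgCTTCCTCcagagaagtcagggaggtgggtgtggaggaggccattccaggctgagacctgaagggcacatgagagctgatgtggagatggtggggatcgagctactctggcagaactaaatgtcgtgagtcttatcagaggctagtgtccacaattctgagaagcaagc
Csf3r: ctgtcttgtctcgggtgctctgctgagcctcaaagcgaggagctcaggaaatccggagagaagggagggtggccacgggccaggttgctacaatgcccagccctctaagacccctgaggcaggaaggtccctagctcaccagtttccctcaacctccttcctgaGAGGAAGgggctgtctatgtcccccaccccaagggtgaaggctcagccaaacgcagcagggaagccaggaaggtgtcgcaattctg

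The motifs were searched on both strands in the full 300 bases of each entry, which add 50 bases after the start. The PU.1 motif GAGGAAG was found in 3 of 3 promoters, and 13.6% of 32851 mouse promoters hold it. Csf2ra had 2 overlapping copies at bases 237 to 243 and 243 to 249, just before its start. Csf2rb2 had 1 on the opposite strand at bases 83 to 89 and another at 279 to 285, after the start, which overlaps a match to the ETS core ACTTCCT at 278 to 284 (9.35% of promoters). Csf3r had 1 at bases 165 to 171. Csf2rb2 also held the STAT motif TTCNNNGAA at bases 236 to 244 (8.30%), Csf3r the IRF motif GAAANNGAA at 291 to 299 (8.56%), and Csf2ra the GC box GGGCGG at 149 to 154 (35.7%). The E-box CANNTG matched in Csf2ra and Csf2rb2 (72.3%). The letters of C/EBP TTGCNNAA (10.8%), RUNX TGTGGT (16.8%) and AP-1 TGANTCA (7.81%) were not in these 3 windows.

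Summits lay near some of these matches. At Csf2rb2 the 4 summits were 14, 30, 22 and 8 bp from the match after the start. From its other match, before the start, they were 176, 160, 218 and 182 bp away. The same summits lay 14, -2, 56 and 20 bp from the promoter start, with positive values into the gene. Closeness to the first match and closeness to the start cannot be told apart here. At Csf3r they were 47, 99, 119 and 91 bp from its match, and the start used for this promoter lies at 126024659, inside the annotated gene body. At Csf2ra the called summits were 48 bp (Cxcr3-/- CMP/GMP) and 31 bp (WT monocytes) from the nearer match. A match describes letters only, and no binding was measured.

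Genes of the same pathways were described from lists of ligands, partner chains, signalling proteins and factors. Of 31 regions at the 4 CSF ligand genes Csf1, Il34, Csf2 and Csf3, 4 (12.9%) were called in both monocyte libraries alone and 2 (6.45%), at Il34, in both CMP/GMP libraries alone, near the 14.4% and 7.28% of all regions. The monocyte-only sites had 42 and 26 tags in WT and Cxcr3-/- monocytes at Csf3, 37 and 27 at Csf1, and 26 and 28 at Il34, which had a second with 25 and 16. Of 35 regions at Il3, Il5, Il3ra, Il5ra, Crlf2 and Il2rg, the cytokines and partner chains tied to beta chain receptors and their relatives, 1 was monocyte-only, at Crlf2 (20 and 22 tags). The 2 CMP/GMP-only regions were at Il5ra, with 18 tags in WT and 24 in Cxcr3-/- CMP/GMP at the taller.

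Among 448 regions at 28 signalling genes, 59 (13.2%) were monocyte-only and 21 (4.69%) CMP/GMP-only, against 14.4% and 7.28% of all regions. The tallest monocyte-only region of the list was at Cish, a cytokine-induced inhibitor of STAT5 signalling, with 152 and 133 tags in WT and Cxcr3-/- monocytes. A second Cish region went the other way, with 81, 151, 40 and 34 tags (log2 ratios of -1.51 and -1.60). Regions more than 2-fold higher in monocytes in both genotypes included one at Inpp5d, the lipid phosphatase SHIP1, with 25, 42, 85 and 71 tags (1.27 and 1.31). Regions of Ptpn11, the phosphatase SHP2, and Socs3, an inhibitor of G-CSF receptor signalling, were lower, with 61, 122, 34 and 19 tags (-1.34 and -2.13) and 55, 85, 28 and 22 tags (-1.47 and -1.40). The tallest Syk region with a one-sided call was monocyte-only, with 83 and 52 tags. The list held sites of both directions, and its median gene ratio was 0.09 in WT and -0.20 in Cxcr3-/-, where all genes had 0.00 and -0.20.

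The 15 genes of factors known to act on CSF receptor genes had 194 regions, of which 25 (12.9%) were monocyte-only and 13 (6.70%) CMP/GMP-only, again near the shares of all regions. Irf8, required for monocyte development, had a monocyte-only region of 97 and 44 tags, and Klf4 one of 63 and 59. An Fli1 region had 21, 36, 92 and 77 tags (log2 ratios of 1.64 and 1.65), and the gene had 7 monocyte-only and 4 CMP/GMP-only regions. Cebpe, a factor of granule gene expression in granulocytes, had a CMP/GMP-only region of 37 and 69 tags. Runx1 had 7 monocyte-only regions, the tallest with 36 and 24 tags, and 2 CMP/GMP-only regions, the taller with 24 and 55. Spi1, which encodes PU.1, had a monocyte-only region of 13 and 13 tags and a CMP/GMP-only region of 16 and 27.

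The type III receptor tyrosine kinase genes Kit, Flt3, Pdgfra and Pdgfrb are the closest relatives of Csf1r. Of their 55 regions, 7 (12.7%) were monocyte-only, against 14.4% of all regions, and 7 (12.7%) CMP/GMP-only, against 7.28%. Of the monocyte-only regions, 4 lie between Pdgfrb and Csf1r and were counted at Csf1r above. A Kit region had 54, 81, 18 and 11 tags, with log2 ratios of -2.08 and -2.33. Flt3 had one with 79, 129, 44 and 38 tags (-1.34 and -1.21). These Kit and Flt3 regions were named for being past 2-fold lower in both genotypes, so their sign was fixed by the choice. Averaged by locus, the cell-type ratios in WT and Cxcr3-/- were -1.85 and -2.16 for Kit and -0.52 and -0.19 for Flt3. Pdgfrb had 0.53 and -0.50, and Pdgfra had -1.45 in Cxcr3-/- and no ratio in WT. Csf1r had 0.63 in both genotypes, where the median of all genes was 0.00 and -0.20. The Kit means are those of the region above and another past 2-fold lower (-1.63 and -1.99), so they add nothing separate. How many regions stand behind the means of the other relatives is not reported here. The region at 61090614 to 61091409, with 0.61 and 1.45, enters both the Pdgfrb and the Csf1r means.

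The genes most like each receptor were found from the summed scaled pileup of their loci, as the Euclidean distance over the 4 libraries on a centred log2 scale, among 13032 genes with at least 5 regions. For Csf1r, whose centred values were -0.55, -0.41, 0.66 and 0.30, they were Ago3 (distance 0.0246) and Nav1 (0.0406). For Csf2ra, with -0.06, 0.33, -0.08 and -0.19, they were Vwa1 (0.0105) and Prkcz (0.0319). For Csf2rb, with -0.01, 0.18, 0.41 and -0.58, they were Stpg1 (0.0348) and Hrc (0.0352). For Csf2rb2, with -0.35, -0.18, 0.49 and 0.05, they were Akr1a1 (0.00742) and Galk2 (0.0222). For Csf3r, with -0.09, 0.03, 0.15 and -0.08, they were Fam78b (0.0140) and Lsm10 (0.0161). Within a distance of 0.1 there were 19 genes for Csf1r, 60 for Csf2ra, 9 for Csf2rb, 43 for Csf2rb2 and 217 for Csf3r, so the flat profile of Csf3r was common and those of Csf2rb and Csf1r were rarer.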

How the data were processed

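Accessible intervals of 4 libraries, 1 per group, were read as deposited. Trim Galore, Bowtie2, SAMtools and mm10 are named in the submitters' processing notes. No source used here names the peak caller, and whether the duplicate 75 bp paired-end sequencing named in the labels was pooled is not stated. Of the authors' values, the deposited score equals the whole part of 10 times the -log10 q and was not used. The deposited fold is the ratio of summit pileup to local background. For each summit the authors also gave a p-value and a q-value, both as -log10. The summit offset is also the authors' deposited value.

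Summit pileup was recovered from the deposited fold and p, assuming a Poisson background and 1 added tag, and was not whole within 0.001 of -log10 p in 0, 2, 1 and 0 intervals. Recovery was tested on simulated data. Identical intervals counted once on chromosomes 1 to 19, X and Y. Gene bodies and promoters came from RefSeq (GRCm38.p6), and exon and intron boundaries were not used here. Ratios carry exact 95% intervals (Clopper-Pearson on the 2 pileups) for counting error only, and a change past 2-fold counted as called. A gene's ratio is the mean over its locus. The regions named outside the receptor loci were, per list, those called in 1 cell type only or past 2-fold the same way in both genotypes, of up to 6 genes with the tallest pileups, some of which are not reported here, and Spi1 was added with its values already known. The 2 genes nearest to each receptor were named by distance. The receptor genes, gene lists and marker lists were chosen with earlier results of these data known. Python 3.11.15, numpy 2.4.6, scipy 1.17.1, pandas 2.3.3 and matplotlib 3.10.9 were used.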

Additional observations from a re-analysis of the deposited data

Results flagged for a closer look

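At the start of Csf2rb2 (chromosome 15, 78305428 to 78305937) the genotype ratio differed between the cell types. Cxcr3-/- to WT was 0.18 (-0.67 to 1.06) on the log2 scale in CMP/GMP, from 19 and 35 tags, and -1.66 (-2.90 to -0.58) in monocytes, from 36 and 9 tags. The difference between these ratios was -1.84, with a 95% interval of -3.17 to -0.51 that covers counting error in these 4 libraries only. It was singled out because that interval lies apart from 0. With the main scaling this was so at 1 of the 20 receptor regions called in all 4 libraries. The same share was not computed over all regions called in all 4 libraries. Whether 1 of 20 is more than usual thus cannot be told. The count also depends on the scaling. Background scaling would add 0.18 to every genotype ratio in CMP/GMP and -0.36 in monocytes, so every such difference would be lower. More of these intervals, such as that of the Csf2rb start, would then lie wholly below 0. The region lies under the minimum of 30 tags used for the other ratios.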

How the results depend on the processing

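With 50 kb flanks the 5 loci held 43, 55, 76 and 56 intervals, in the order CMP/GMP then monocytes, WT before Cxcr3-/-. Regions called in WT and not Cxcr3-/- monocytes numbered 8 with equal-length lists instead of 13, and the converse was 0 with a -log10 q of at least 5 and 4 with 50% reciprocal overlap instead of 2. The count of monocyte-only regions was 11 to 14 over the 4 alternatives for lists, q and overlap. Genotype ratios in monocytes past 2-fold lower numbered 2 with background scaling and 2 with no minimum pileup, instead of 0. Cell-type ratios in WT past 2-fold higher numbered 10 with background scaling, 0 with a minimum of 60 tags and 2 with the deposited fold, instead of 1. In Cxcr3-/-, 3 were past 2-fold higher with background scaling and 0 with a minimum of 60 tags, instead of 1. In Cxcr3-/-, regions past 2-fold lower numbered 2 with no minimum pileup and 0 with background scaling, gene-end scaling, median-of-ratios scaling, a minimum of 60 tags or the deposited fold, instead of 1. Median-of-ratios scaling was chosen after seeing the data. Of 66 single ratios, 16 changed sign with background scaling, 11 with the deposited fold, 6 with gene-end scaling and 0 with median-of-ratios scaling. Cell-type intervals wholly above and wholly below 0 numbered 3 and 2 of 15 in WT and 2 and 4 of 17 in Cxcr3-/-, against 4 and 2, and 6 and 1, with gene-end scaling, 13 and 0, and 7 and 0, with background scaling, and 5 and 1, and 2 and 3, with median-of-ratios scaling. The cause of these changes was not tested, and the share of all regions with such cell-type intervals was not computed. Pileups of 9 to 30 tags leave counting intervals wider than 2-fold. No paired analysis was possible because each group has 1 library and no test was run.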
